A study of Mus musculus with 8 samples.

Results

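The genes described here code for the subunits of voltage-gated sodium and calcium channels in the visual cortex of adult mice. They were taken by symbol: every Scn gene of the alpha or beta type, every Cacna1 gene, Cacna2d1 to Cacna2d4 and Cacnb1 to Cacnb4. The rule found 32 genes among 24883 gene rows: 10 sodium alpha, 4 sodium beta, 10 calcium alpha-1, 4 calcium alpha-2-delta and 4 calcium beta subunits. Of these, 23 had a mean of at least 0.5 FPKM (read fragments scaled to transcript length and library size) over all libraries and were tested, and the other 9 were low. RNA was sequenced from 8 samples of C57BL/6J mice. In 4 samples, called anti-miR-29a here, the cortex had been injected with an LNA oligonucleotide complementary to miR-29a. In the 4 scrambled samples the LNA oligonucleotide had a scrambled sequence. LNA stands for locked nucleic acid, a modified backbone that makes a short strand pair tightly with a microRNA and block it. Both groups were injected on postnatal day 122 and their tissue was taken on postnatal day 129. Whether each sample is a different animal is not in the labels, so n counts samples, and the spread behind each p-value may be technical.

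Voltage-gated sodium channels carry the rising phase of the action potential. One alpha subunit forms the pore and senses voltage, and beta subunits, which also act as adhesion molecules, set how the channel opens, closes and is placed in the membrane. Voltage-gated calcium channels turn the action potential into calcium entry, which drives transmitter release, dendritic calcium signals and gene regulation. Their alpha-1 subunit is the pore, the beta subunit binds it from inside the cell, and the alpha-2-delta subunit, the site where gabapentin binds, raises the number of channels at the surface. A microRNA lowers its targets by pairing its seed, bases 2 to 8, with their 3' UTR.

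Setting anti-miR-29a beside scrambled samples asks which transcripts differ when miR-29a is blocked, so the microRNA and its matches in these genes are shown first. The seeds of the 3 mature forms of the miR-29 family, in capitals, are the same, and the oligonucleotide was designed against the first of them (sequences from RefSeq, build GRCm38.p6).
miR-29a-3p: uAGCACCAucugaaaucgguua
miR-29b-3p: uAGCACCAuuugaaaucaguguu
miR-29c-3p: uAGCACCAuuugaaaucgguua

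The complement of this seed, TGGTGCT, was searched on the transcript strand in the longest annotated 3' UTR of each gene. It was present in 2 of the 32 genes, 6.25%, which are 8.70% of the tested ones, and in 15.8% of 13151 tested gene rows with a 3' UTR. The matches were those of Cacna1c, the main L-type calcium channel of the brain, at chr6:118593338-118593359 on the minus strand of mm10, and of Scn3b, a sodium channel beta subunit, at chr9:40290461-40290482 on the plus strand. They are printed with the match in capitals.
Cacna1c: cgcaggctgctgccTGGTGCTc
Scn3b: cccactgtttgtctTGGTGCTg

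Neither match is followed by an A, so neither is the longer 8mer type. Cacnb1 had a match only in the 3' UTR of another of its transcripts. Cacna1c read 7.25, 7.91, 6.99 and 7.39 FPKM in anti-miR-29a replicates 1 to 4, against 6.89, 7.33, 7.96 and 7.69 FPKM in scrambled replicates 1 to 4, and the groups overlapped. Scn3b read 19.2, 19.5, 19.8 and 19.8 FPKM in the anti-miR-29a libraries, against 19.5, 19.2, 19.7 and 22.9 FPKM in the scrambled libraries, again with overlap. The log2 differences were -0.014 for Cacna1c and -0.050 for Scn3b, and neither passed (limma, adjusted p = 0.964 and 0.825). When each library was corrected for transcript length and GC content, Cacna1c stood at 0.057 and Scn3b at -0.063. Here and below, a log2 difference is anti-miR-29a minus scrambled on the scale log2(FPKM + 0.1), and p-values are adjusted over all 13912 tested gene rows.

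The libraries were alike in the number of gene rows at 1 FPKM or more, 12595 to 12769 in the anti-miR-29a and 12538 to 12702 in the scrambled group. The deposited values are FPKM, so the number of reads behind each value is not known. The spacing of low values put relative depths at 0.973 to 1.16 of scrambled replicate 1. Markers of the neurons that hold these channels were high: summed over Snap25, Syt1, Rbfox3, Tubb3, Eno2 and Stmn2, they read 2509 to 2736 FPKM in anti-miR-29a and 2551 to 2740 FPKM in scrambled libraries. Interneuron markers summed to 704.1 to 795.3 and 675.0 to 726.0 FPKM, and meningeal fibroblast markers to 12.2 to 26.7 and 7.98 to 18.02 FPKM in the same order. The groups overlapped in the summed level of each of 11 cell type lists, and 0 of 46 tested marker genes passed. At an unadjusted p under 0.05 (limma) there were 6, against 10.7% of all tested rows. Log2 differences stood above 0 in 3 of 6 neuron, 1 of 4 excitatory neuron and 4 of 6 interneuron markers. The same held for 2 of 5 astrocyte, 0 of 5 oligodendrocyte and 3 of 3 tested fibroblast markers. Of the defining markers, the fibroblast gene Lum and the muscle genes Ckm and Mylpf were listed at 0 in some library. The part of cell composition in the differences below was not tested. In bulk tissue, fewer cells of a type and less RNA per cell cannot be told apart.

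Among sodium channel alpha subunits, 4 were expressed and 6 were near the floor. Scn8a, the alpha subunit of the mature axon initial segment and nodes, had the highest level of the family. It read 36.8, 38.1, 37.2 and 36.9 FPKM in the anti-miR-29a libraries, against 38.0, 40.7, 37.4 and 37.3 FPKM in the scrambled libraries. Those groups overlapped, with scrambled replicate 2 the highest. Scn2a1, now named Scn2a and found mainly in excitatory neurons, came second at 26.6 ± 0.759 FPKM in anti-miR-29a and 29.7 ± 2.52 FPKM in scrambled samples (SD, n = 4 each). Scn1a, whose protein carries much of the sodium current of parvalbumin interneurons, averaged 15.3 ± 0.998 and 15.9 ± 0.882 FPKM, and Scn3a, which is most abundant before birth, 2.67 ± 0.296 and 3.25 ± 0.266 FPKM. FPKM is scaled to transcript length, so these levels were set beside each other, though the annotation behind that scaling is not known. Over all 8 libraries the ranges of Scn8a, Scn2a1, Scn1a and Scn3a did not touch. Of the family's summed FPKM, Scn8a held 45.2% ± 0.888 in anti-miR-29a and 43.7% ± 1.48 in scrambled samples, Scn2a1 32.3% ± 0.580 and 33.9% ± 1.73, and Scn1a 18.6% ± 0.993 and 18.1% ± 0.431 (SD, n = 4 each).

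**Figure D1:**
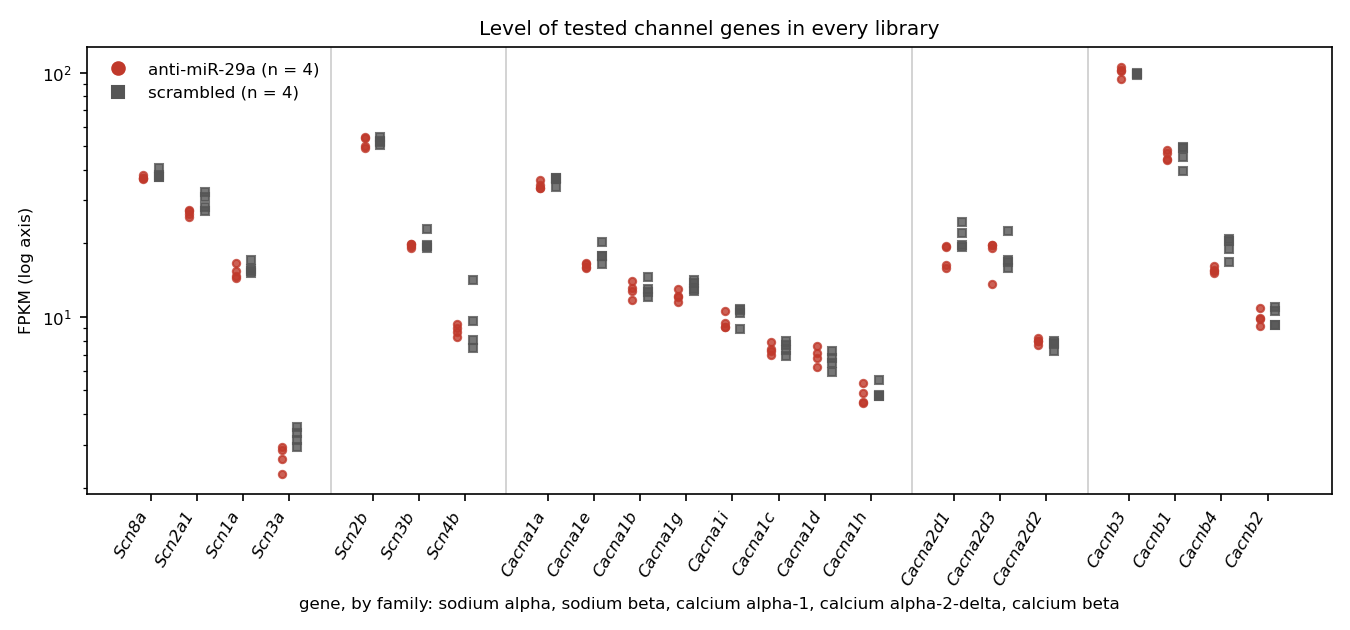
FPKM (log axis) of 22 tested channel genes in each library, grouped by subunit family, with anti-miR-29a libraries as circles left of scrambled libraries as squares. Among those drawn, Cacnb3 stands highest at 94.3 to 105.0 FPKM and Scn3a lowest at 2.28 to 3.55 FPKM.

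Among sodium channel beta subunits, Scn2b, which is linked to alpha subunits by a disulfide bond, averaged 52.0 ± 2.64 and 52.3 ± 1.64 FPKM (SD, n = 4 each), in anti-miR-29a and scrambled samples in that order. Scn3b averaged 19.6 ± 0.311 and 20.3 ± 1.73 FPKM. Scn4b, known for its part in resurgent sodium current, averaged 8.83 ± 0.452 and 9.82 ± 3.05 FPKM. The large SD of the scrambled group came from replicate 2, at 14.2 FPKM against 7.45 to 9.63 FPKM in the other scrambled and 8.27 to 9.33 FPKM in the anti-miR-29a libraries. Scn4b is abundant in striatum. A list of 9 striatal markers, chosen after this value was seen, summed to 104.3 FPKM in that library. The other scrambled libraries read 100.9 to 120.2 FPKM. Why replicate 2 was high for Scn4b was not tested.

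Of the pore subunits of calcium channels, 8 were tested. Cacna1a, the P/Q-type pore that triggers fast transmitter release, led at 36.4, 33.7, 34.7 and 33.7 FPKM in the anti-miR-29a libraries, against 33.9, 37.1, 36.8 and 37.0 FPKM in the scrambled libraries. Scrambled replicate 1 stood below the other 3 of its group, among the anti-miR-29a values. Cacna1a held 33.0% ± 1.05 of the family's summed FPKM in anti-miR-29a and 32.9% ± 0.529 in scrambled samples (SD, n = 4 each). The R-type pore Cacna1e, at 16.3 ± 0.373 and 18.1 ± 1.54 FPKM, and the N-type pore Cacna1b, a second channel of nerve terminals, at 12.9 ± 0.948 and 13.1 ± 1.06 FPKM, came next. The T-type pores, which open at low voltage and support burst firing, had unequal levels. Cacna1g averaged 12.2 ± 0.605 FPKM in anti-miR-29a and 13.4 ± 0.678 FPKM in scrambled samples, Cacna1i 9.54 ± 0.692 and 10.2 ± 0.841 FPKM, and Cacna1h 4.79 ± 0.421 and 4.94 ± 0.378 FPKM. The L-type pores Cacna1c and Cacna1d, which couple calcium entry to gene regulation, averaged 7.39 ± 0.385 and 6.96 ± 0.589 FPKM in anti-miR-29a samples and 7.47 ± 0.461 and 6.63 ± 0.557 FPKM in scrambled samples.

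Among the calcium channel auxiliary subunits, Cacnb3 was the most abundant. It read 102.6, 105.0, 94.3 and 101.6 FPKM in the anti-miR-29a libraries, against 98.9, 99.1, 100.0 and 97.8 FPKM in the scrambled libraries. The scrambled values lay inside the range of the anti-miR-29a values. Cacnb1 averaged 45.8 ± 2.11 FPKM in anti-miR-29a and 45.9 ± 4.62 FPKM in scrambled samples (SD, n = 4 each), and Cacnb2 9.94 ± 0.726 and 10.03 ± 0.870 FPKM. Of the alpha-2-delta subunits, Cacna2d1, a high-affinity gabapentin site, averaged 17.7 ± 1.92 and 21.4 ± 2.44 FPKM. Cacna2d3 averaged 18.04 ± 2.95 and 18.05 ± 2.97 FPKM, and Cacna2d2 7.96 ± 0.215 and 7.71 ± 0.310 FPKM. Over all 23 tested genes ordered by level, 7 of 22 pairs of neighbours had ranges that did not touch. Cacnb3 was set apart from Scn2b below it, whereas the 8 genes from Scn3b to Cacna1g at 12.8 FPKM each overlapped the next.

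**Figure D2:**
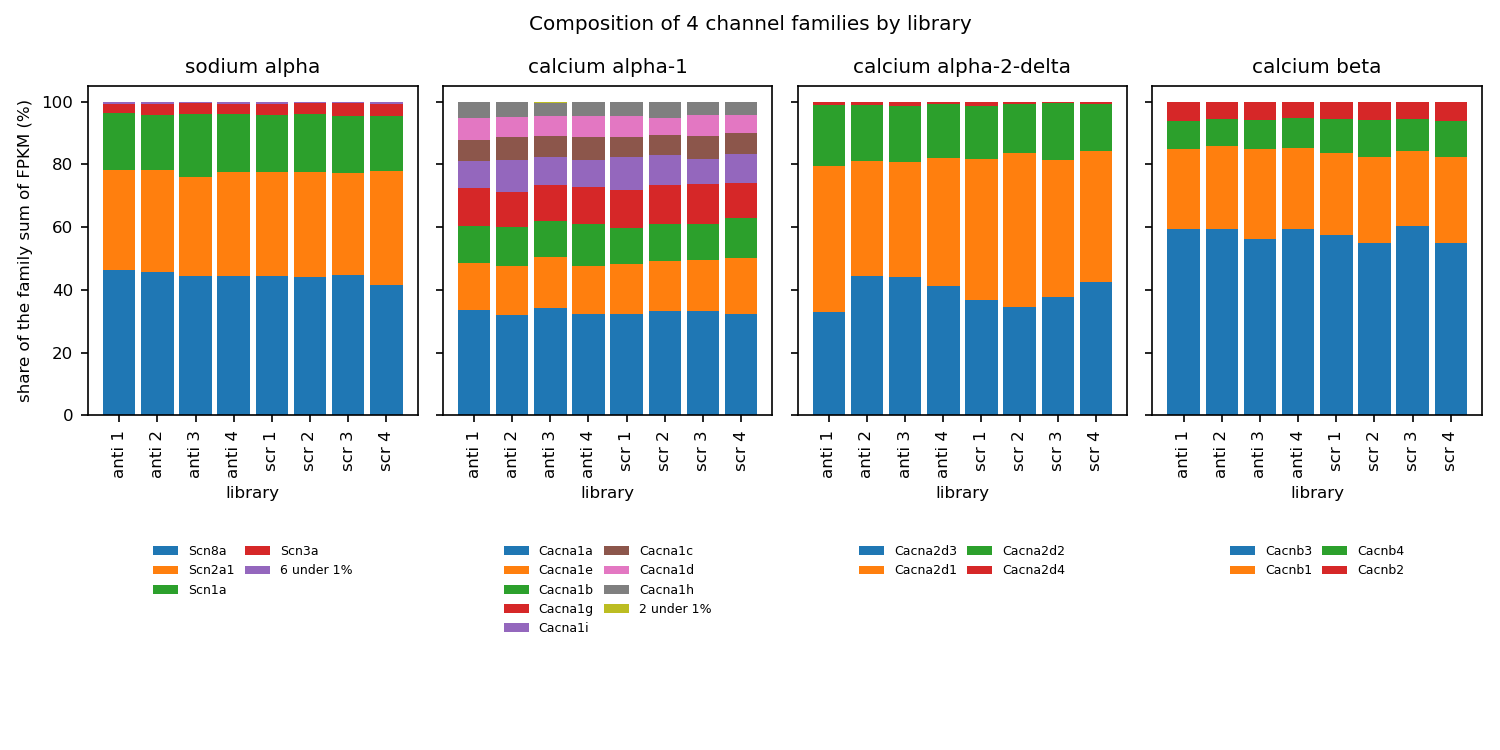
Share of each subunit in the summed FPKM of its family (%), as stacked bars for each library and 4 of the families, with anti-miR-29a libraries (anti) left of scrambled libraries (scr). The Cacnb4 share is 8.68% to 9.42% in anti-miR-29a and 10.1% to 11.6% in scrambled libraries.

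The low genes are mostly known from other tissues. Cacna2d4 and Cacna1f, of photoreceptor synapses, averaged 0.471 and 0.0962 FPKM in anti-miR-29a and 0.381 and 0.0514 FPKM in scrambled samples. Scn7a, a sodium-sensing relative found in glia, and Scn9a, of peripheral sensory neurons, averaged 0.196 and 0.192 FPKM in anti-miR-29a and 0.266 and 0.155 FPKM in scrambled samples. Cacna1s, the skeletal muscle calcium channel, averaged 0.0963 and 0.0921 FPKM in the same order. The sensory neuron genes Scn10a and Scn11a averaged 0.0692 and 0.0168 FPKM in anti-miR-29a and 0.0326 and 0.00427 FPKM in scrambled samples. Scn11a was listed at 0 in anti-miR-29a replicate 4 and scrambled replicates 1 to 3, and Scn10a in scrambled replicate 2. Scn4a, of skeletal muscle, was listed at 0 in every library except anti-miR-29a replicate 1. The low genes were not tested, and there is a clear gap between them and the rest, from 0.426 FPKM for Cacna2d4 to 2.96 FPKM for Scn3a.

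No sodium or calcium channel gene passed the test between anti-miR-29a and scrambled samples. Of 23 tested genes, 0 were higher and 0 lower at an adjusted p under 0.05 (limma), where 0.0144% of all 13912 tested gene rows passed, 0.00719% higher and 0.00719% lower. At an unadjusted p under 0.05, 3 were lower and 0 higher, 13.0% of the genes, against 3.18% lower and 7.54% higher among all tested rows. The 3 genes were Cacnb4, Cacna2d1 and Scn2a1. This count was 1 (4.35%) without anti-miR-29a replicate 2 and 1 without scrambled replicate 4, where 8.77% and 8.92% of all tested rows reached it. It was 6 (26.1%) under quantile and under trimmed mean scaling of the libraries, where 10.9% and 10.7% of all tested rows did. The value was below 0 in 18 of 23 genes, 78.3%, against 43.4% of all tested rows. The median log2 difference was -0.046 for the channel genes and 0.026 for all tested rows. By family, 4 of 4 sodium alpha, 7 of 8 calcium alpha-1, 2 of 3 alpha-2-delta and 2 of 4 calcium beta genes stood below 0, with medians of -0.11, -0.054, -0.0031 and -0.0057.

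On the scale of the main fit, the libraries did not separate by group in these genes as a whole. Against the mean of the scrambled group, the median of the 23 genes stood at -0.050, -0.012, -0.076 and -0.059 log2 units in anti-miR-29a replicates 1 to 4, and at -0.059, 0.056, -0.041 and 0.032 in scrambled replicates 1 to 4. Scrambled replicates 1 and 3 stood among the anti-miR-29a libraries, and scrambled replicates 2 and 4 stood above them. The medians over all tested rows were not taken off. They were -0.0021, 0.068, 0.012 and 0.038 in anti-miR-29a replicates 1 to 4. In scrambled replicates 1 to 4 they were -0.0078, -0.0037, 0.0069 and 0.012. Without scrambled replicate 2 the median log2 difference was -0.017 and 14 of 23 genes stood below 0, and without scrambled replicate 4 it was -0.052 with 13 of 23 below 0. Replicate spread was small. The median coefficient of variation of the channel genes was 5.08% in anti-miR-29a and 8.20% in scrambled samples. Over all tested rows it was 11.5% and 11.1%. Those rows reach down to 0.5 FPKM, whereas the tested channel genes start at 2.96 FPKM, and rows of like level were not compared.

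**Figure D3:**
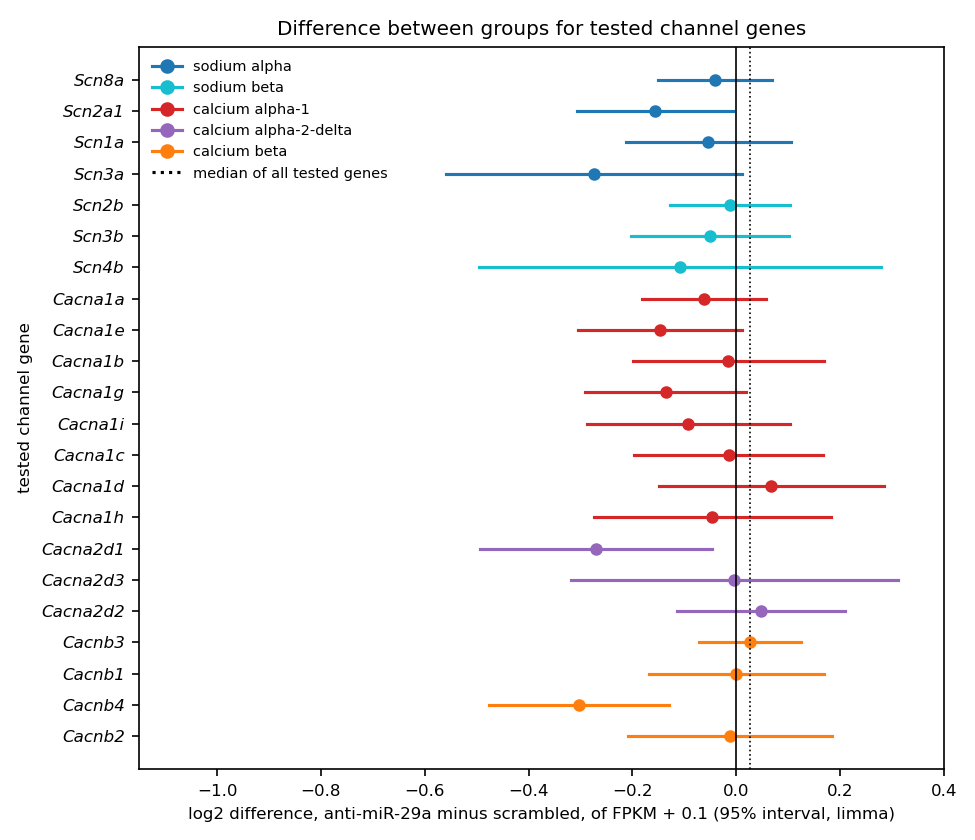
Log2 difference (anti-miR-29a minus scrambled, of FPKM + 0.1) of 22 tested channel genes with its 95% interval from limma, coloured by family; the dotted line is the median of all tested genes. The intervals of Cacnb4, Cacna2d1 and Scn2a1 lie wholly below 0, before any adjustment for the number of genes tested.

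Cacnb4, the beta subunit gene mutated in the lethargic mouse, a model of ataxia with absence seizures, had the smallest p of the 23. It read 15.1, 15.4, 15.6 and 16.1 FPKM in the anti-miR-29a libraries, against 18.9, 20.9, 16.8 and 20.5 FPKM in the scrambled libraries. Every anti-miR-29a library lay below every scrambled library, with scrambled replicate 3 the nearest. The log2 difference was -0.30 with a standard error of 0.078 and a 95% interval of -0.48 to -0.13, a level 18.9% lower, and did not pass (limma, adjusted p = 0.234; range 0.168 to 0.546 over 19 alternatives). Cacnb4 was the only tested channel gene whose groups did not overlap, 1 of 23 or 4.35%, against 6.31% of all tested rows, 2.29% lower and 4.02% higher. Under median, trimmed mean and quantile scaling of the libraries 3, 4 and 5 channel genes had groups without overlap, Cacnb4 and Scn2a1 among them each time, against 6.65%, 6.59% and 6.79% of all tested rows. Its share of the summed beta subunit FPKM was 9.04% ± 0.374 in anti-miR-29a and 11.0% ± 0.675 in scrambled samples (SD, n = 4 each). Its 3' UTR of 6169 nt held 0 matches to the miR-29 seed. After correction of each library for a smooth dependence on transcript length and GC content, the difference was -0.20.

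Cacna2d1 and Scn2a1 had lower means in anti-miR-29a samples with overlap between the groups. Cacna2d1, whose library values are given after they were seen, read 19.3, 15.8, 16.3 and 19.5 FPKM in the anti-miR-29a libraries, against 19.3, 24.5, 19.6 and 22.2 FPKM in the scrambled libraries. Its log2 difference was -0.27, standard error 0.10 (limma, adjusted p = 0.383), and -0.18 with the length and GC trend removed. Anti-miR-29a replicates 2 and 3 were the low ones, and replicates 1 and 4 were level with scrambled replicates 1 and 3. Scn2a1 read 25.6, 27.1, 26.4 and 27.3 FPKM in the anti-miR-29a libraries, against 28.3, 31.0, 27.0 and 32.6 FPKM in the scrambled libraries. Only scrambled replicate 3 fell inside the anti-miR-29a range. Its log2 difference was -0.16, standard error 0.068 (limma, adjusted p = 0.448), and -0.039 with that trend removed.

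The next genes by p did not reach an unadjusted 0.05. Scn3a, given per library after its values were seen, read 2.28, 2.86, 2.94 and 2.62 FPKM in the anti-miR-29a libraries, against 2.93, 3.15, 3.55 and 3.35 FPKM in the scrambled libraries. Anti-miR-29a replicate 3 and scrambled replicate 1 met at the border between the groups. The log2 difference was -0.27 with a 95% interval of -0.56 to 0.011 (limma, adjusted p = 0.481), and -0.15 with the length and GC trend removed. Cacna1e, the calcium pore of smallest p, read 16.1, 16.5, 16.7 and 15.8 FPKM in the anti-miR-29a libraries, against 16.5, 17.8, 17.8 and 20.2 FPKM in the scrambled libraries. Scrambled replicate 4 was the highest, and replicate 1 the one that overlapped. The log2 difference was -0.15 with a 95% interval of -0.31 to 0.011 (limma, adjusted p = 0.491), -0.065 with the trend removed and -0.093 without scrambled replicate 4. Cacna1g, also given after its values were seen, read 13.0, 12.1, 11.6 and 12.2 FPKM in the anti-miR-29a libraries, against 12.7, 13.8, 14.2 and 13.0 FPKM in the scrambled libraries, and overlapped. Its log2 difference of -0.14 (limma, adjusted p = 0.508) was -0.085 with the trend removed.

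**Figure D4:**
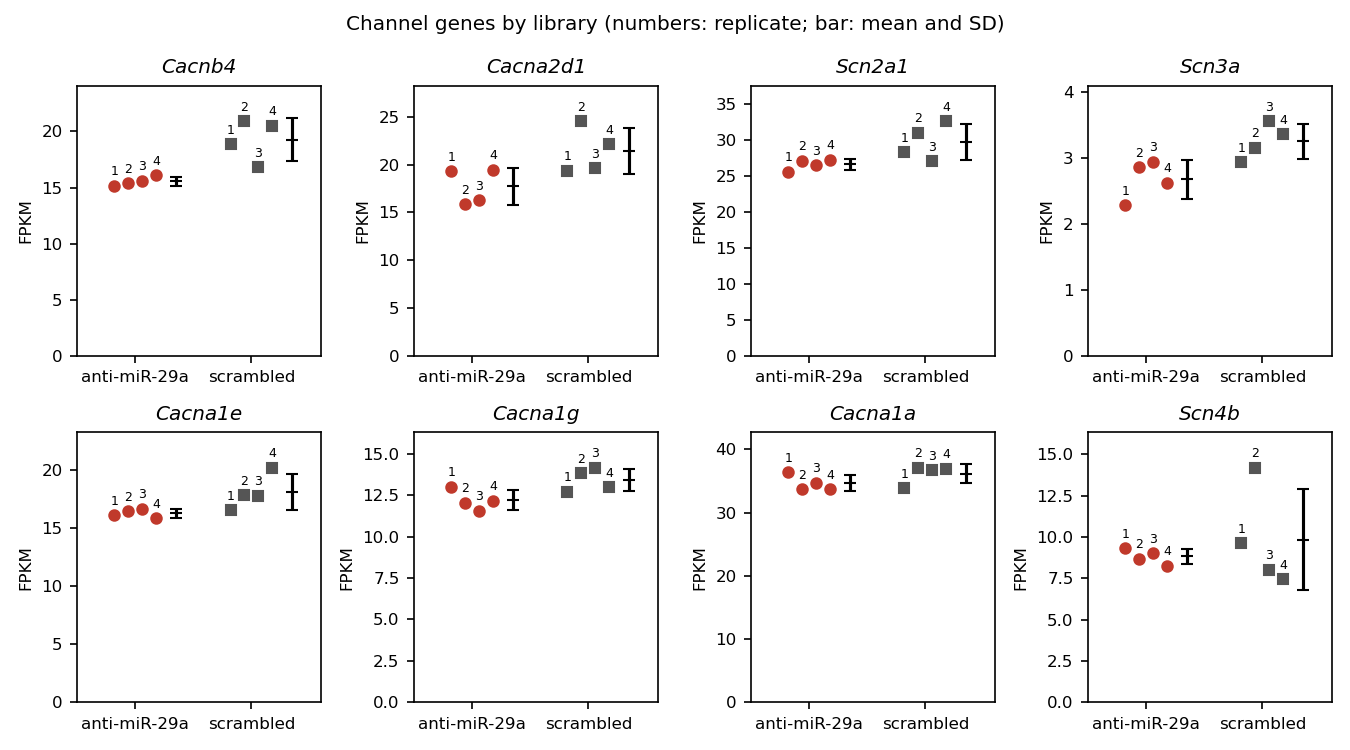
FPKM of selected channel genes in each library, with the replicate number above each point and the mean and SD beside each group (n = 4 each). Cacnb4 is the one gene with separate groups, at 15.1 to 16.1 FPKM in anti-miR-29a and 16.8 to 20.9 FPKM in scrambled libraries, and the Scn4b panel shows scrambled replicate 2 at 14.2 FPKM.

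For many of the other genes the intervals of the main fit bound the difference, given the spread between these samples. They do not take in changes of library scaling or the correction for length and GC content. In 12 of 23 genes the 95% interval lay within 0.25 log2 units of 0 on either side, that is between 15.9% lower and 18.9% higher. Among them were Cacnb3 at 0.027, with an interval of -0.071 to 0.12, and Scn8a at -0.040, with an interval of -0.15 to 0.069. Cacna1a stood at -0.062 with an interval of -0.18 to 0.057, Scn2b at -0.011 with -0.13 to 0.10, and Scn1a at -0.054 with -0.21 to 0.11. The differences of Cacna1b, Cacna1h, Cacna1i, Cacnb1, Cacnb2, Cacna2d2 and Cacna2d3 lay between -0.092 for Cacna1i and 0.048 for Cacna2d2. Cacna1d stood at 0.068 with an interval of -0.15 to 0.28. The widest intervals were those of Scn4b, from -0.49 to 0.28 around -0.11, and Cacna2d3, from -0.32 to 0.31. The Scn4b difference was 0.083 without scrambled replicate 2. An interval that spans 0 does not show that the levels were equal.

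Subunits that fill the same role were also compared as ratios within a library, which multiplying all values of a library by 1 factor does not change. The ratio of Scn1a to Scn3a, the adult over the prenatal form, was 5.76 ± 0.509 in anti-miR-29a and 4.92 ± 0.543 in scrambled samples (SD, n = 4 each; exact two-sided permutation p = 0.0857, 0.171 after Benjamini-Hochberg adjustment over the 4 ratios). The ratio of Scn8a to Scn2a1, the late over the early form of the axon initial segment, was 1.44, 1.41, 1.40 and 1.35 in the anti-miR-29a libraries, against 1.34, 1.31, 1.38 and 1.14 in the scrambled libraries. Scrambled replicate 3 at 1.38 lay inside the anti-miR-29a range and replicate 4 was the lowest (exact permutation p = 0.0571, adjusted 0.171). Its log2 difference was 0.12, and 0.058 without scrambled replicate 4; the ratios are not corrected for length or GC content. The ratio of Cacna1a to Cacna1b was 2.69 ± 0.254 and 2.78 ± 0.165, and that of Cacna1c to Cacna1d 1.07 ± 0.0940 and 1.13 ± 0.0964 (exact permutation p = 0.629 and 0.40, adjusted 0.629 and 0.533). None of the 4 passed. The smallest p that 70 relabellings allow is 0.0286, which for a single ratio adjusts to 0.114, so no ratio could have passed alone.

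Most of these genes have long transcripts, and the difference between the groups moved with transcript length across all genes. The median length of the longest annotated transcript, the longest coding one for coding genes, was 8225 nt for the tested channel genes and 3135 nt for the 13792 tested rows with a length. Over 20 bins of equal size, the median log2 difference of all genes went down steadily at the long end, to -0.090 in the bin centred on 9933 nt, while it was 0.12 in the bin centred on 727 nt. Among 3489 other tested rows with a length between 4403 and 9248 nt, the middle range of the channel genes, the median was -0.035 and 60.8% stood below 0. The channel genes, at -0.046 and 78.3%, lay nearer to these rows than to all genes. With the length and GC trend removed, the median of the channel genes was -0.036, 17 of 23 stood below 0 and 1, or 4.35%, had an unadjusted p under 0.05. Over all tested rows the median was then -0.0078, and 7.96% had such a p. The share of all tested rows below 0 was not counted under this correction. Scn1a and Scn8a then stood at 0.057 and 0.027, on the other side of 0. The part of transcript length in the single differences was not tested beyond these values.

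**Figure D5:**
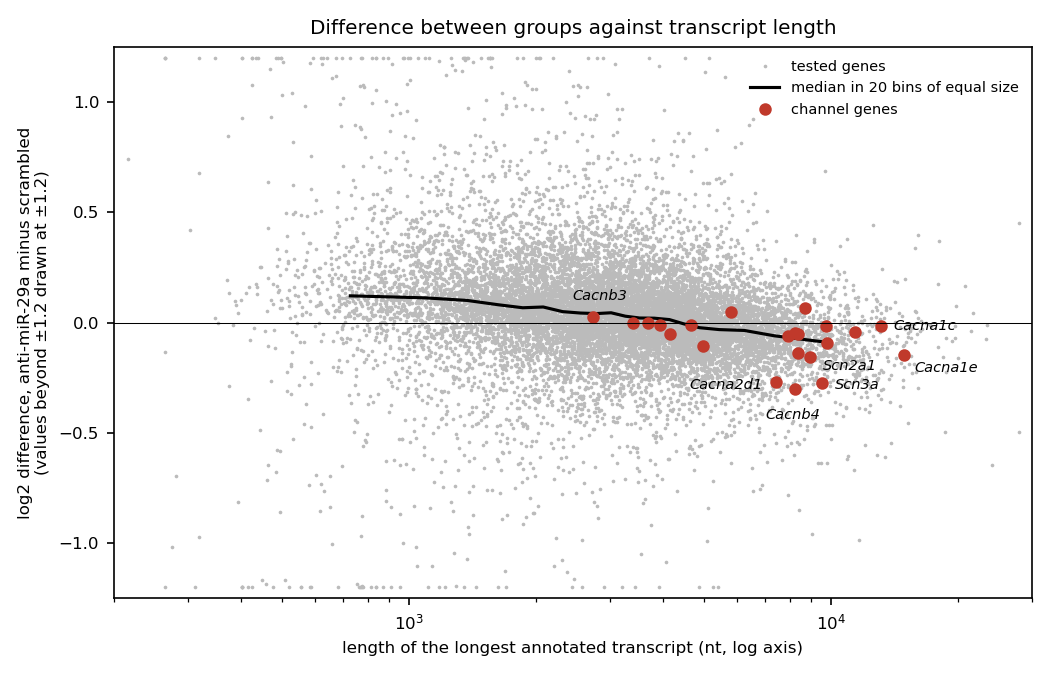
Log2 difference (anti-miR-29a minus scrambled) against the length of the longest annotated transcript (nt, log axis) for all tested genes (grey), with their median in 20 bins (line) and 22 channel genes (red). Most channel genes sit among long transcripts where the line is below 0, with Cacnb4, Cacna2d1 and Scn3a further below it.

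Many of the genes lie near each other in the genome, and genes of the same stretch could have very different levels. Other genes that may lie between them were not looked for. Scn3a, Scn2a1, Scn1a, Scn9a and Scn7a lie within 1328 kb of chromosome 2 (65457118 to 66784914, mm10), and their means over all libraries were 2.96, 28.2, 15.6, 0.174 and 0.231 FPKM. Scn2b and Scn4b lie within 36.4 kb of chromosome 9, at 52.1 and 9.33 FPKM. Cacna1c and the low gene Cacna2d4 lie within 765 kb of chromosome 6, and Cacna2d3 and Cacna1d within 1587 kb of chromosome 14. The library kit does not mark strand, and 9 of the 32 genes, 7 of them tested, share exon bases with an annotated gene on the opposite strand, from which their reads cannot be told apart. Cacnb4, at 52428320 to 52676831 on the minus strand of chromosome 2, shares 1433 bases with A430018G15Rik, whose level was not analysed here. Cacna1d shares 589 bases with Chdh, which read 0.584 ± 0.145 and 0.616 ± 0.183 FPKM (SD, n = 4 each) in anti-miR-29a and scrambled samples. Scn9a shares 180 bases with Gm13629, at 3.05 ± 0.922 and 1.68 ± 0.598 FPKM, well above Scn9a itself.

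No gene passed in a list of sodium channel partners, which also holds the sodium leak channel genes Nalcn, Unc79, Unc80 and Fam155a. Of 16 listed partners all 16 were tested and 0 passed in either direction (limma). At an unadjusted p under 0.05 (limma), 1 was higher and 2 were lower, against 7.54% higher and 3.18% lower among all tested rows. The median was -0.059 and 11 stood below 0, against 0.026 and 43.4% over all tested rows. The difference moved with transcript length across all genes, and the partners were not set beside rows of like length. Groups did not overlap in 1 that was higher and 2 that were lower, against 4.02% and 2.29% over all tested rows. Fgf14, an intracellular fibroblast growth factor homologue that binds the channel tail at the axon initial segment, read 6.55, 7.01, 7.08 and 7.46 FPKM in the anti-miR-29a libraries, against 7.89, 10.8, 9.46 and 8.35 FPKM in the scrambled libraries. Its groups did not overlap (log2 difference -0.36, standard error 0.11; limma, adjusted p = 0.273). Fgf13, a homologue of the same family, averaged 33.3 ± 1.05 and 38.6 ± 3.85 FPKM (SD, n = 4 each), a log2 difference of -0.20 (limma, adjusted p = 0.375). Sptbn4, the spectrin of the axon initial segment, was higher in every anti-miR-29a library, at 44.7 ± 2.54 against 39.7 ± 0.472 FPKM, a log2 difference of 0.17 (limma, adjusted p = 0.30). Unc80, a subunit of the sodium leak channel, and Nedd4l, a ubiquitin ligase for sodium channels, stood at -0.11 each (limma, adjusted p = 0.51 and 0.63). Unc80 too had groups that did not overlap.

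Partners of calcium channels likewise held no gene that passed. Of 25 listed genes, 21 rows were tested and 0 passed in either direction (limma). Of these 21, 3 were higher and 3 lower at an unadjusted p under 0.05 (limma), against 7.54% higher and 3.18% lower among all tested rows. The median was -0.052 and 13 stood below 0, against 0.026 and 43.4% over all tested rows. Here too, rows of like transcript length were not compared. Groups did not overlap in 1 of the 21, which was higher, against 4.02% higher and 2.29% lower over all tested rows. Stac2, an adaptor that slows inactivation of L-type channels, averaged 68.2 ± 3.79 FPKM in anti-miR-29a and 59.0 ± 4.24 FPKM in scrambled samples (SD, n = 4 each), a log2 difference of 0.21 (limma, adjusted p = 0.291). Cabp1, a calmodulin-like regulator of the channels, averaged 137.6 ± 7.24 and 125.4 ± 3.98 FPKM with no overlap, a log2 difference of 0.13 (limma, adjusted p = 0.375). Calm3, a calmodulin gene, stood at 0.11, and Cacng2, which codes for stargazin and mainly escorts AMPA receptors, at -0.18 (limma, adjusted p = 0.402 and 0.397). Rrad, a small GTPase of a family that inhibits calcium channels, was low at 0.641 ± 0.178 and 1.16 ± 0.349 FPKM, a log2 difference of -0.76 (limma, adjusted p = 0.391). Rims1 has 2 rows in the table whose values run against each other from library to library, so its level is uncertain.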

How the data were processed

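The deposited table holds FPKM values, 1 column per sample, made by the authors. The tools named in the submitters' processing notes are Bowtie, Cuffnorm and CASAVA 1.8.2, and the build is mm10. How Cuffnorm scaled the libraries, with which annotation, and how it split reads that match several genes is not given in the sources used here. Per the labels' protocols the libraries were made with a kit that does not mark strand and read as pairs of 100 bases.

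Values were taken as log2(FPKM + 0.1), which understates the change of low genes. Gene rows averaging 0.5 FPKM or more entered limma (version 3.58.1, R version 4.3.3), modelled by group alone, with the prior variance following mean level. P-values were two-sided, Benjamini-Hochberg adjusted over all 13912 rows, at a threshold of 0.05. The fit was tested on simulated data. Ratios used exact permutation over 70 relabellings. Transcript lengths, 3' UTRs and positions came from GENCODE M21, on the mm10 assembly; 99.1% of tested rows had a length, and all 32 genes matched, Scn2a1 through its newer symbol. The trend on length and GC content was fitted per library with mgcv 1.9.3.

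The genes, partner lists and 11 marker lists were chosen with earlier results of these data known. Values per library are given for the gene of highest level and of smallest p among sodium alpha, calcium alpha-1 and calcium auxiliary subunits, for channel genes whose groups do not overlap, for the genes with a seed match and for others chosen after their values were seen, which include Scn4b and Fgf14; of each partner list the 5 of smallest p are named. Alternatives were other pseudocounts (1 and 0.01), filters, scalings, weights, a replicate block and leaving out each library. Of the 32 genes, 2 are counted but their own values are not reported here.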

Additional observations from a re-analysis of the deposited data

Results flagged for a closer look

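In 46 groups of 4 libraries, 4 held a library that stood apart from the other 3 of its group by Dixon's criterion, which flags about 1 in 20 groups by chance. Cacna1a read 33.9 FPKM in scrambled replicate 1, below the other scrambled libraries. Cacna1h read 5.51 FPKM in scrambled replicate 2, above the others of its group. Cacna2d3 read 13.6 FPKM in anti-miR-29a replicate 1, below the others of its group. Scn3b read 22.9 FPKM in scrambled replicate 4, above the others of its group. The 4 flags fell on 4 different libraries.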

How the results depend on the processing

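No channel gene and, where it was run, no partner gene passed under any of the alternatives, and the lowest adjusted p of a channel gene was 0.168, for Cacnb4 without scrambled replicate 3. Among all tested rows 2 passed, but 1 without the filter, 1 with a mean of at least 5 FPKM, 0 with the length and GC trend removed, 10 with robust empirical Bayes and 1 to 3 with 1 library left out. Replicate numbers showed no sign of pairing the samples. Correlations of deviations were -0.106 to 0.0143 for equal numbers and -0.235 to 0.194 for unequal ones, and no library correlated best with its own number. A weak pairing might not be seen in this way. With the replicate block 0 rows passed. The groups did not overlap in 1 channel gene (4.35%), against 6.31% of all tested rows. Under quantile normalization the count was 5 (21.7%), under median centring 3 (13%) and under trimmed mean scaling 4 (17.4%), against 6.79%, 6.65% and 6.59%. With 1 library left out it was 1 to 5 (4.35% to 21.7%), against 9.14% to 11.1% of all tested rows. Cacnb4 was among the genes without overlap each time. Of 416 values of 22 channel genes under alternatives, 33 had the opposite sign, and 10 genes had none. With the length and GC trend removed these were Cacna1b 0.029, Cacna1c 0.057, Cacnb3 -0.059, Cacnb1 -0.055, Scn8a 0.027 and Scn1a 0.057. Cacnb3 stood at -0.027 under quantile normalization and -0.0024 under median centring. Cacnb1, at 0.00059, stood at -0.034, -0.029 and -0.025 under quantile, median and trimmed mean scaling and at -0.014 with sample weights, where Scn2b stood at 0.0072. With 1 library left out, the values of genes that changed sign ran from -0.056 to 0.037 for Cacna1b, -0.052 to 0.016 for Cacna1c, -0.099 to 0.0064 for Cacna1h, -0.062 to 0.13 for Cacna2d3, -0.068 to 0.041 for Cacnb1, -0.057 to 0.030 for Cacnb2, -0.032 to 0.015 for Scn2b, -0.075 to 0.0087 for Scn3b and -0.22 to 0.083 for Scn4b, and the log2 ratio of Cacna1a to Cacna1b from -0.094 to 0.0061. The cause was not tested. FPKM gives no read counts, so no floor or counting interval could be set for the low genes.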
